A study of Mus musculus with 2 samples.

Results

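The 10 genes described here make and repair the DNA breaks of V(D)J recombination: Rag1, Rag2, Dntt, Dclre1c, Xrcc6, Xrcc5, Prkdc, Lig4, Xrcc4 and Nhej1. They were chosen by name and matched by mouse Entrez ID, and all 10 were found among the 24532 gene IDs of the deposited tables. The RNA came from sorted double-positive (DP) thymocytes, the T cell precursors that carry both CD4 and CD8, that were also positive for CD69, a surface protein gained after a T cell receptor signal. The 2 libraries, 1 per genotype, came from C57BL/6 mice aged 6 weeks. The library labelled wild-type carried floxed Nsrp1 alleles (NSRP1f/f) and no Cre, and the KO-labelled library carried the same floxed alleles with CD4Cre, a Cre recombinase driven by Cd4 regulatory sequence. The Nsrp1 product, NSrp70, is a speckle-resident protein of the nucleus that takes part in alternative splicing. Libraries are named as labelled throughout. The labels do not say how many animals were pooled or which sex they were.

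In developing lymphocytes the RAG1 and RAG2 proteins together cut DNA beside antigen receptor gene segments and leave hairpin-sealed coding ends. Ku70 and Ku80 (the products of Xrcc6 and Xrcc5) bind the broken ends and recruit DNA-PKcs (Prkdc), which activates the nuclease Artemis (Dclre1c) to open the hairpins. Terminal transferase (TdT, the product of Dntt) adds untemplated nucleotides, and DNA ligase IV (Lig4) with XRCC4 and XLF (Nhej1) seals the joint. In DP thymocytes this machinery rearranges the T cell receptor alpha locus, and Rag1, Rag2 and Dntt are normally switched off as cells mature past this stage.

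Levels are given as TPM, an abundance scaled for transcript length that sums to the same total in each library. Each value has a 95% interval from the estimated number of read pairs, exact Poisson for a level and exact Clopper-Pearson for a ratio, and these intervals cover counting error only. With a single library for each genotype no difference has a replicate check and none was tested. Estimated read pairs on annotated exons numbered 20787802 in the wild-type-labelled library and 25129518 in the KO-labelled library. The level of the targeted gene as a whole did not mark the genotype. Nsrp1 stood at 29.7 TPM in the wild-type-labelled library and 29.6 TPM in the KO-labelled library, a ratio of 0.997 (0.908 to 1.09). The depth of its single exons was not examined here. Directions below are therefore between libraries as labelled. Of the DP and sorting markers, Cd4 was at 725 and 663 TPM and Cd8b1 at 1377 and 1679 TPM, in that order of libraries. Cd8a was at 1138 and 1151 TPM, Cd3e at 944 and 862 TPM and Cd69 at 429.7 and 522 TPM. Arpp21 was at 111 and 128 TPM, Aqp11 at 65.2 and 114 TPM and Ptcra at 13.6 and 16.0 TPM. Of these 8, Aqp11 had the largest fold change, with a ratio of 1.74 (1.60 to 1.90).

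Rag1 and Dntt were among the most abundant RNAs of these cells, and no member differed by as much as a log2 fold change of 1 between the libraries. Fold changes are log2((TPM + 1) in the KO-labelled library / (TPM + 1) in the wild-type-labelled library), which slightly understates changes of low genes. All 10 members had at least 1 TPM in a library, as did 12029 genes. At a size of 1, 0 of 10 members were called, against 2.03% of all genes. At the smaller size of 0.3, 2 of 10 members were higher in the KO-labelled library (Dntt and Rag2), against 7.28% of all genes, and 1 was lower (Prkdc), against 18.2%. The members' median log2 fold change was 0.05, with a range of -0.33 to 0.41, beside -0.07 over all genes, and 6 members lay above zero and 4 below, beside 4635 and 7394 of all genes (for the members 7 and 3 in FPKM or after rescaling by the median ratio of genes, where Rag1 turned to 0.05 and 0.01). In bulk RNA, fewer cells of a type and less RNA per cell cannot be told apart.

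**Figure D1:**
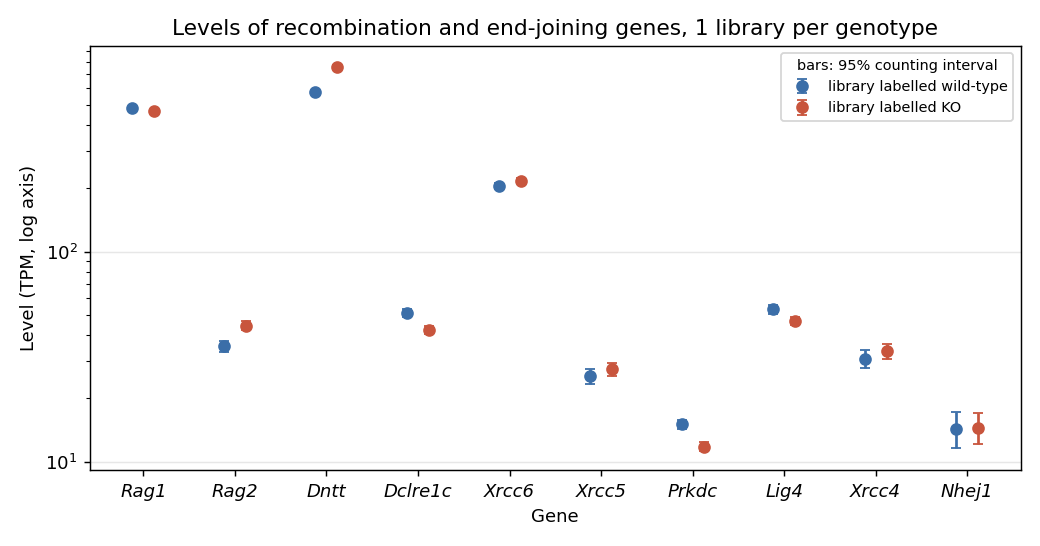
Level of each gene in TPM on a log axis, in the wild-type-labelled library (blue) and the KO-labelled library (red), with 95% counting intervals as bars. Dntt and Rag1 stand highest and Nhej1 and Prkdc lowest in both libraries, and the paired points lie close together for all 10 genes.

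The levels spanned from 14.2 TPM (Nhej1) to 572 TPM (Dntt) in the wild-type-labelled library. From high to low the order there was Dntt, Rag1, Xrcc6, Lig4, Dclre1c, Rag2, Xrcc4, Xrcc5, Prkdc and Nhej1. Counting intervals of neighbours overlapped for Lig4 and Dclre1c, for Rag2 and Xrcc4, and for Prkdc and Nhej1. In the KO-labelled library Rag2 stood above Dclre1c and Nhej1 above Prkdc, and in both cases the neighbouring intervals overlapped. Among the 12029 genes, Dntt was at percentile 98.2 and Rag1 at percentile 97.8 in the wild-type-labelled library, and Nhej1 at percentile 33.8.

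The recombinase genes Rag1 and Rag2 lie side by side on chromosome 2 and point toward each other. Rag1 (RefSeq span 101638252 to 101649532, minus strand) was at 484 TPM (478 to 490) in the wild-type-labelled library and 467 TPM (463 to 472) in the KO-labelled library. The ratio was 0.966 (0.951 to 0.981), a small difference for the gene of the catalytic subunit. Rag2 (101624748 to 101632528, plus strand), the partner subunit that reads methylated histone H3, was at 35.5 TPM (33.4 to 37.7) and 44.3 TPM (42.2 to 46.5). Its ratio was 1.25 (1.16 to 1.35). There were thus 13.6 Rag1 transcripts per Rag2 transcript (12.8 to 14.5) in the wild-type-labelled library and 10.55 (10.04 to 11.09) in the KO-labelled library, with no overlap of the counting intervals. Over the exons before the last one, which hold 111 bases in Rag1 and 186 in Rag2, the same ratios were 5.86 and 3.75, so their size depends on which exons are read and their order between libraries does not. Rag2's log2 fold change over those short upstream exons was 0.19, under the size of 0.3.

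The starts of the lymphocyte-restricted members Rag1, Rag2 and Dntt are shown because these 3 genes are switched on and off with the DP stage and differ widely in level. Each is the 250 bases before the gene's start in RefSeq (GRCm38.p6), read 5′ to 3′ on the gene's own strand. Capitals mark E-boxes, CANNTG, the motif of the E protein family to which the DP-stage factors E2A and HEB belong.
Rag1, chr2:101649533-101649782, minus strand: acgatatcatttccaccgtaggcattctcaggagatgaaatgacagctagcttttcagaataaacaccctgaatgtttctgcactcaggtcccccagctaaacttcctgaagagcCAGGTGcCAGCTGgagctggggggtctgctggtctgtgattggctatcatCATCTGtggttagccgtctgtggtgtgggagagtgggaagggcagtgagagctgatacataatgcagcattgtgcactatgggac
Rag2, chr2:101624462-101624711, plus strand: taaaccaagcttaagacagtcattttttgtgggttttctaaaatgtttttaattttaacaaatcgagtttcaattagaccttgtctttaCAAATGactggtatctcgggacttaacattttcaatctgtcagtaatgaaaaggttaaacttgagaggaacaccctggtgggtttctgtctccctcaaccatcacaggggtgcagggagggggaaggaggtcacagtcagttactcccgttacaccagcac
Dntt, chr19:41029025-41029274, plus strand: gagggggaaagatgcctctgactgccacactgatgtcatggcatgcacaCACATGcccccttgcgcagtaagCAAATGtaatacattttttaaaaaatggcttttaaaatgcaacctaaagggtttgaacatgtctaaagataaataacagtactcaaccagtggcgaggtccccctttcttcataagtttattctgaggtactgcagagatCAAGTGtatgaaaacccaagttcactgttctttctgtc

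An entry was matched for 9 of the 10 members, all but Prkdc. Rag1's window holds 3 E-boxes, of which 2 are of the E protein forms CAGCTG or CAGGTG, Rag2's holds 1 and Dntt's 3, of which none is of those forms. Searched on both strands, CANNTG is in 63% of 18245 promoters of this length and in 8 of the 9 members', and CAGCTG or CAGGTG, a subset of the first motif, in 26.7% of all promoters and in Rag1, Lig4 and Dclre1c. The RUNX motif TGTGGT is in 12.2% of all promoters and, among the members, in Rag1's only. GATA is in 49.7% of all and 5 of 9 members', and TATAAA is in 12.1% of all and none of the members'. The windows of Rag1, Rag2 and Dntt hold 3, 3 and 2 CpG dinucleotides, against a median of 10 over all promoters. Those of the other members hold 28 in Lig4, 26 in Xrcc4, 25 in Xrcc6, 9 in Nhej1, 8 in Dclre1c and 5 in Xrcc5. A match is a string of letters and not a bound site, and Rag2's window ends 36 bases from the start used in the deposited tables. Nhej1's window lies 78587 bases from that start and so does not describe the quantified transcript, and it is among the members counted for CANNTG and for GATA.

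Dntt was the most abundant member in both libraries and, over all exons, the one with the largest fold change in size. Without the last exons Dclre1c (-0.47), Rag1 (-0.45) and Lig4 (-0.44) were further from zero than Dntt (0.38), and over the 5′ part Prkdc was (-0.71). It was at 572 TPM (561 to 583) in the wild-type-labelled library and 760 TPM (748 to 771) in the KO-labelled library, a ratio of 1.33 (1.296 to 1.36). The higher level was seen over 10 of the 11 exons of its most abundant transcript, with ratios from 0.846 in exon 1 to 1.42 in exon 11. Dntt has 2 annotated transcripts that differ by a coding exon of 60 bases, the insert that separates the long form of mouse TdT from the short form, which is the form known to add nucleotides. That exon (GRCm38, plus strand; no base is marked) is shown because it is the whole difference between the forms.
Dntt exon 11 of NM_009345, chr19:41058567-41058626: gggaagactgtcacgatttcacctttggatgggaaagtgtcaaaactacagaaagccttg

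The 60 bases are 20 codons, so both forms keep one reading frame. The long form NM_009345 held 21.1% of the gene's TPM in the wild-type-labelled library and 21.9% in the KO-labelled library, and the short form NM_001043228 held 78.9% and 78.1%. Read depth of the exon itself, which does not depend on how reads were divided between transcripts outside it, was 16.1% of that of the exon before in the wild-type-labelled library and 18.2% in the KO-labelled library, from 70.2 and 138 read pairs. Against the exon after it the shares were 24.7% and 26.4%. Both forms were thus higher in the KO-labelled library, at 121 and 166 TPM for the long form and 451 and 593 TPM for the short form, in the same order of libraries, and the balance between them differed by 0.782 percentage points.

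Dclre1c, which encodes Artemis, was somewhat lower in the KO-labelled library as a whole and showed the largest difference in isoform make-up among the members. The gene (chromosome 2, 3424131 to 3461116, plus strand) was at 50.9 TPM (48.5 to 53.4) and 42.3 TPM (40.3 to 44.3), 1.21-fold lower (1.13 to 1.29) in the KO-labelled library. All 14 exons of its most abundant transcript had a depth ratio below 1, from 0.580 in exon 1 to 0.844 in exon 5. The gene has 5 annotated transcripts. The main one, NM_146114, was at 37.7 TPM in the wild-type-labelled library and 19.3 TPM in the KO-labelled library, which is 74.1% and 45.7% of the gene. NM_001302684 stood at 1.31 TPM in the wild-type-labelled library and 13.5 TPM in the KO-labelled library, which is 2.56% and 32.1% of the gene, a difference of 29.5 percentage points. The other 3 transcripts differed by at most 3.40 points in size. At a threshold of 25 percentage points, 2 of the 7 transcripts of members with several annotated forms were called, both of Dclre1c, against 3.78% of 8852 transcripts in genes of 10 TPM or more in both. The 2 transcripts trade reads with each other, so they are a single event, and the other 8 members have 1 annotated transcript each.

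These 2 Dclre1c transcripts start and end at the same bases and differ by a stretch of 396 bases inside the last exon of NM_146114, which NM_001302684 removes. The stretch (chr2:3453199-3453594, GRCm38, plus strand) lies inside the coding sequence of the GENCODE M21 annotation and is 132 codons long, so its removal keeps the reading frame. Its ends are shown because they carry the bases that define an intron, GT at the start and AG at the end, both in capitals.
First 30 bases of the stretch, chr2:3453199-3453228: GTgaatgtttggaacacttaccttcctcca
Last 30 bases of the stretch, chr2:3453565-3453594: ctgaagtaaatggagccccttgtcttgtAG

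As a share of the pair, the form that lacks the stretch made up 3.34% in the wild-type-labelled library and 41.2% in the KO-labelled library. The pair itself kept its share of the gene, at 76.7% and 77.8%, beside 23.3% and 22.2% for the transcripts that end further downstream. Depth over the last exon of NM_146114, summed over all transcripts, had a ratio of 0.823 (0.755 to 0.896). That split is the quantifier's allocation: junction reads, the depth of the stretch alone and that of the bases after it were not analysed here. The neighbouring gene Suv39h2 shares 210 exonic bases with Dclre1c, 3.38% of Dclre1c's, and its span begins at 3455815, after both transcripts of the pair have ended at 3455354.

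**Figure D2:**
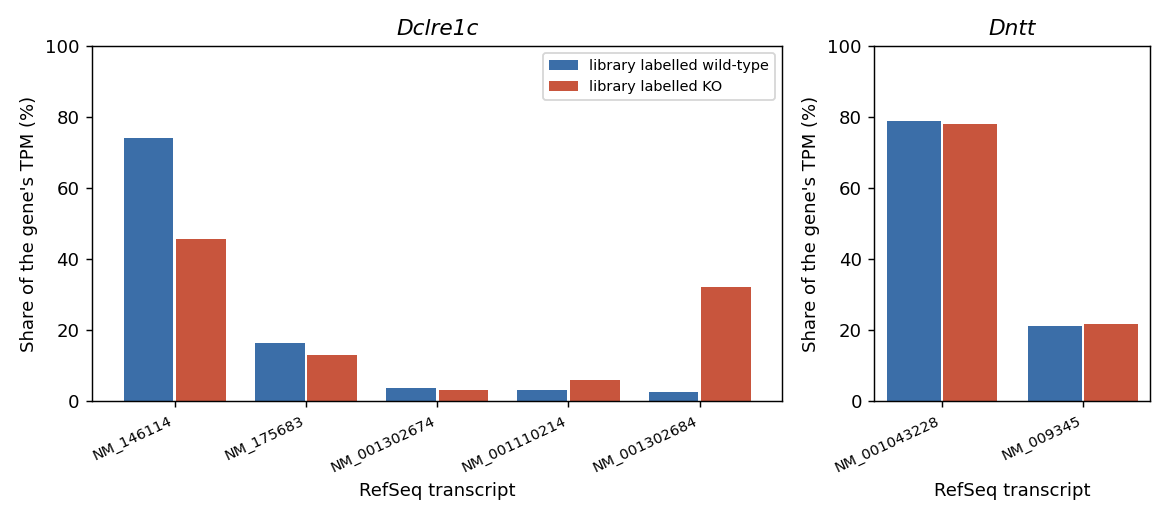
Share of the gene's TPM held by each annotated transcript of Dclre1c (left) and Dntt (right), in percent, for the wild-type-labelled library (blue) and the KO-labelled library (red). NM_146114 of Dclre1c stands at 74.1% and 45.7% and NM_001302684 at 2.56% and 32.1%, while the 2 Dntt forms stay within 0.782 percentage points.

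The genes for end recognition had differences in both directions. Xrcc6, encoding Ku70, was at 204 TPM (198 to 211) in the wild-type-labelled library and 218 TPM (212 to 224) in the KO-labelled library, a ratio of 1.07 (1.02 to 1.11). Xrcc5, encoding its partner Ku80, was at 25.5 TPM (23.4 to 27.7) and 27.5 TPM (25.6 to 29.5), a ratio of 1.08 whose interval (0.966 to 1.20) includes 1. The Ku proteins work as a dimer of 1 copy each, yet Xrcc6 RNA exceeded Xrcc5 RNA 8.02-fold (7.34 to 8.78) in the wild-type-labelled library and 7.93-fold (7.36 to 8.56) in the KO-labelled library. Without the last exons the same ratios were 7.998 and 7.82.

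Prkdc, encoding the kinase DNA-PKcs, was at 15.0 TPM (14.3 to 15.8) in the wild-type-labelled library and 11.8 TPM (11.2 to 12.4) in the KO-labelled library, 1.27-fold lower (1.19 to 1.36). There were 13.6 Xrcc6 transcripts per Prkdc transcript in the wild-type-labelled library and 18.5 in the KO-labelled library, with intervals (12.8 to 14.4 and 17.5 to 19.5) that do not overlap. Its difference was not even along the transcript, which has 12674 bases in 86 exons. Its exons were joined into 5 segments of near-equal length, numbered from the start. In segment 1 its depth was 7.35 TPM-equivalents (coverage put on the TPM scale of its library) in the wild-type-labelled library and 3.82 in the KO-labelled library, a ratio of 0.520 (0.404 to 0.667). The ratio was 0.533 in segment 2, 0.713 in segment 3 and 0.812 in segment 4. In segment 5 the depths were 28.7 and 27.5 TPM-equivalents and the ratio was 0.957 (0.860 to 1.06), an interval that includes 1. Of the 86 exons, 76 had a ratio below 1.

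Such a slope was common among all genes of these libraries. Exons were divided at the middle of the most abundant transcript into a 5′ part and a 3′ part, and the log2 fold change of the 3′ part lay above that of the 5′ part in 79.5% of 9859 genes that had 20 read pairs or more in each part, with a median shift of 0.18. Among the members it lay above in 9 of 10, all but Nhej1, with a median shift of 0.17. A shift of 0.3 or more was found for 3 of 10 members (Xrcc4, Prkdc and Rag1), against 25.9% of all genes. Fold changes also went with transcript length: the median log2 fold change was 0.05 over 4255 genes under 2000 bases and -0.40 over 167 genes of 10000 bases or more, of which 70.1% were lower by 0.3 or more. Prkdc belongs to that last class, and its 5′ part, at -0.71, matched the class median of -0.71, while its 3′ part stood at -0.17 beside a class median of -0.25. Whether transcript length or RNA quality has a part in the lower Prkdc level was not tested. Prkdc's call at 0.3 did not hold in FPKM (-0.21) or after rescaling by the median ratio of genes (-0.27).

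**Figure D3:**
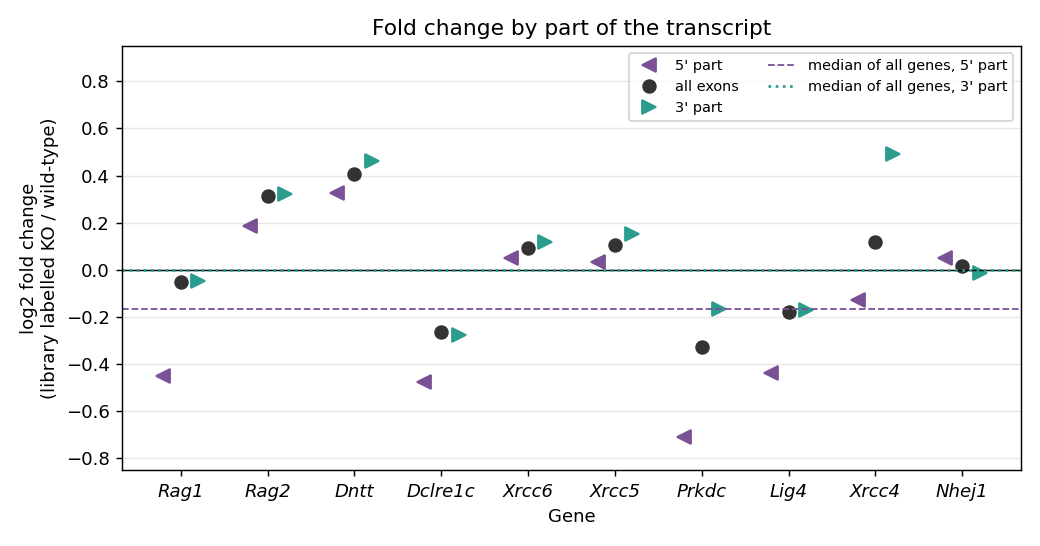
Log2 fold change of each gene (KO-labelled over wild-type-labelled library) over its 5′ part (left-pointing triangles), all exons (circles) and its 3′ part (right-pointing triangles), with the median of all genes for each part as lines. Dntt and Rag2 lie above zero in both parts, Rag1 (above zero as a whole in FPKM, at 0.05), Dclre1c, Prkdc and Lig4 below zero in both, and Xrcc4 has its 3′ part above zero and its 5′ part just below, with a counting interval that includes no difference.

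The 5′ parts of Rag1, Rag2 and Lig4 are short, with 111, 186 and 293 bases, since nearly the whole message of each is in its last exon. Dntt's parts are of equal size, 1038 and 1032 bases, and gave log2 fold changes of 0.33 and 0.46. Dclre1c was lower over both, at -0.47 and -0.28. Dntt was the only member at 0.3 or more above zero in both parts, and no member was at 0.3 or more below zero in both.

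The ligation genes had small differences. Lig4, encoding DNA ligase IV, was at 52.99 TPM (50.6 to 55.4) in the wild-type-labelled library and 46.7 TPM (44.7 to 48.7) in the KO-labelled library, 1.14-fold lower (1.07 to 1.21). Xrcc4, encoding the scaffold that stabilizes the ligase, was at 30.8 TPM (27.9 to 33.9) and 33.5 TPM (30.8 to 36.3), a ratio of 1.09 whose interval (0.956 to 1.24) includes 1. Nhej1, encoding the XRCC4-like factor XLF, was at 14.2 TPM (11.6 to 17.2) and 14.4 TPM (12.1 to 17.1), a ratio of 1.01 (0.779 to 1.32). With 104 and 136 read pairs, Nhej1 is the member with the widest interval, and a difference of up to 1.32-fold lies inside it.

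The difference in Xrcc4 lay in its 3′ part. Its 5′ part was at 41.6 and 37.9 TPM-equivalents, a ratio of 0.912 whose interval (0.773 to 1.08) includes 1, and its 3′ part at 20.5 and 29.2, a ratio of 1.43 (1.16 to 1.77). By exon the ratio went from 0.783 in exon 3 to 1.59 in the last, exon 8. Its shift of 0.62 between parts was at percentile 94.0 of all genes. Of the 50-base words of Xrcc4's GENCODE transcript, 4.49% also occur in transcripts outside the gene, so a small part of its reads is uncertain. The largest part of these words is in Tmem167, whose start lies 59 bases away on the other strand. The ratio of Lig4 to Xrcc4 was 1.72 (1.55 to 1.92) in the wild-type-labelled library and 1.39 (1.27 to 1.53) in the KO-labelled library. Without the last exons it was 0.636 and 0.474, so which of the pair is the more abundant depends on whether the last exon is read, and the lower value in the KO-labelled library does not.

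**Figure D4:**
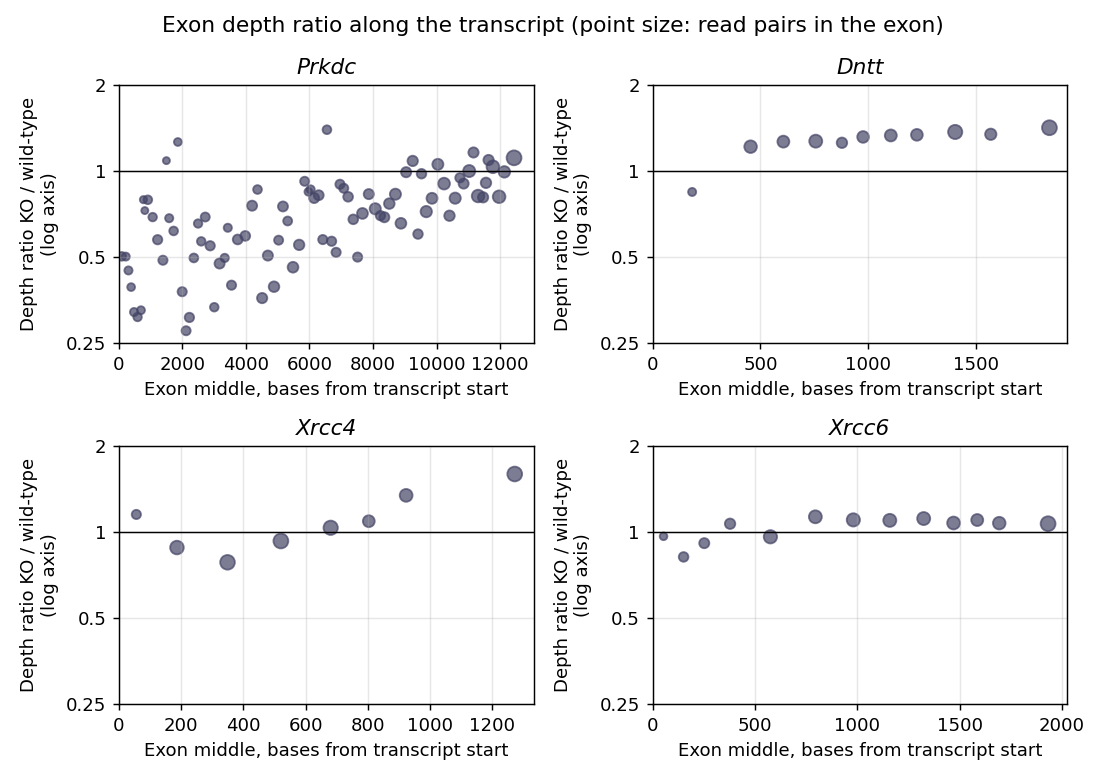
Depth ratio of each exon, KO-labelled over wild-type-labelled library, on a log axis against the distance of the exon's middle from the transcript start in bases, for Prkdc, Dntt, Xrcc4 and Xrcc6, with larger points for exons with more read pairs. Prkdc climbs from 0.520 in segment 1 to 0.957 in segment 5, Xrcc4 climbs from 0.783 in exon 3 to 1.59 in exon 8, and the ratios of Dntt after exon 1 are all above 1.

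Genes beside the members were examined because several share a start region with one. Abhd13 starts 1394 bases from Lig4 on the other strand and was at 39.7 TPM in the wild-type-labelled library and 34.6 TPM in the KO-labelled library, a log2 fold change of -0.19 beside Lig4's -0.18. Mcm4, a subunit of the replicative helicase, starts 466 bases from Prkdc and was at 60.2 and 71.9 TPM, a log2 fold change of 0.25 where Prkdc was at -0.33. Desi1 starts 229 bases from Xrcc6 and was at 143 and 120 TPM, a log2 fold change of -0.26 where Xrcc6 was at 0.09. Tmem167 was at 14.7 and 14.3 TPM. So 1 of these 4 opposed pairs, Lig4 with Abhd13, had like differences, and Prkdc with Mcm4 and Xrcc6 with Desi1 had differences of opposite sign.

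The remaining neighbours within 5 kb shared no exonic base with a member, apart from Suv39h2. Snu13, past the end of Xrcc6, was at 181 TPM in the wild-type-labelled library and 214 TPM in the KO-labelled library. Suv39h2, on the strand opposite Dclre1c, was at 6.19 and 4.98 TPM. Iftap, whose span overlaps Rag2's on the other strand with 0 shared exonic bases in the RefSeq transcripts, was at 6.95 and 7.71 TPM. Of the words of Rag2's GENCODE transcript, 4.77% occur also in transcripts outside the gene, as do 0.503% of Rag1's. For both, the largest part is in B230118H07Rik, and the labels do not give the strand of the reads. That name is GENCODE's, while the neighbours carry RefSeq symbols. Whether it is Iftap or another of the neighbours under a different name was not checked. Opalin near Dntt and Meig1 near Dclre1c were listed at 0, and Tmem169 near Xrcc5 was at 0.0411 and 0 TPM. No annotated neighbour lay that close to Rag1 or Nhej1.

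Of 6 genes that work with RAG or set its protein level, 4 were higher by 0.3 or more in the KO-labelled library (Ccna2, Hmgb2, Skp2 and Hmgb1), against 7.28% of all genes. The 1 lower gene was Dcaf1, a call lost in FPKM and after rescaling, against 18.2% of all genes. The list's median log2 fold change was 0.37. Hmgb2, one of the DNA-bending cofactors of the RAG complex, was at 225 TPM in the wild-type-labelled library and 368 TPM in the KO-labelled library. Its ratio was 1.64 (1.58 to 1.69), and 21.9% of its words occur also outside the gene, the largest part in Gm4739. Ccna2 encodes cyclin A, whose kinase partner marks RAG2 protein for destruction at the entry into S phase. Ccna2 was at 36.7 and 70.7 TPM, a ratio of 1.93 (1.78 to 2.09). Of its words, 15.9% occur also outside the gene, the largest part in Exosc9. Cdk2, the partner of Ccna2, was at 97.0 and 100.7 TPM. Dcaf1, encoding the adaptor of RAG1 protein turnover, was at 36.4 and 28.6 TPM, 1.27-fold lower (1.19 to 1.36). These are RNA levels, and the amounts of RAG proteins were not measured.

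Several of those genes also belong to proliferation, and the cell cycle list stood higher in the same library. Of its 24 genes, 22 were higher in the KO-labelled library by 0.3 or more, against 7.28% of all genes. By 1 or more 5 were higher (Birc5, Rrm2, Tpx2, Ccnb2 and Aurkb), against 2.03% of all genes past 1 in either direction. None was lower, and the median was 0.78. Birc5, encoding survivin, was at 35.7 and 103 TPM, and Rrm2, a subunit of ribonucleotide reductase, at 50.5 and 112 TPM. The lowest of the list were Mcm2, at 86.8 and 95.1 TPM, and Mcm7, at 153 and 179 TPM, both subunits of the replicative helicase. The part of the cell cycle genes in the higher Rag2 and Dntt levels was not tested.

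Transcription factors known to act on the Rag genes had small differences, most of them below zero. Of 20 genes 19 passed the filter, and 17 of the 19 lay below zero with a median of -0.14. At 0.3, 0 were higher, beside 7.28% of all genes, and 3 were lower (Zfp608, Foxo1 and Runx1), beside 18.2% of all genes. Those 3 have transcripts of 5552 to 6112 bases, in a length class (5000 to 10000 bases) whose median over 1607 genes was -0.24. In FPKM 12 of 19 lay below zero and 0 were lower by 0.3. Foxo1, an activator of Rag transcription, was at 28.7 TPM in the wild-type-labelled library and 22.4 TPM in the KO-labelled library, 1.28-fold lower (1.19 to 1.38). Zfp608, linked to repression of Rag genes, was at 3.38 and 2.26 TPM. At the other end of the list stood Id2, an inhibitor of E proteins, at 123 and 141 TPM, and Cbfb, the partner of RUNX factors, at 181 and 202 TPM.

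The signalling genes for DNA double-strand breaks had a median of -0.06 over the 14 that passed. By 0.3 or more, 1 was higher (H2ax), against 7.28% of all genes, and 4 were lower (Rnf8, Trp53bp1, Mdc1 and Atm), against 18.2%. In FPKM the median was 0.04, with 2 higher and 1 lower, so the sign of this median depended on the scale. Atm, Trp53bp1 and Mdc1 have long transcripts, of 11964, 9624 and 7352 bases. Genes of 10000 bases or more were lower by 0.3 or more in 70.1% of cases, and those of 5000 to 10000 bases in 36.0%. Atm's log2 fold change was -0.31, beside a median of -0.40 in its length class. H2ax, the histone variant marked at breaks, was at 134 and 203 TPM, a ratio of 1.51 (1.42 to 1.61). Of its words, 9.66% occur also in transcripts outside the gene. Rnf8, a ubiquitin ligase that acts on marked chromatin, was at 45.4 and 28.7 TPM, 1.59-fold lower (1.43 to 1.76). Of the words of its GENCODE transcript, 31.3% occur also outside the gene, the largest part in Gm28043. That transcript has 5404 bases and the RefSeq transcript behind the level 2078. The share of its reads that is uncertain is therefore not known. Trp53bp1, which shields broken ends from resection, was at 37.8 and 29.7 TPM. Its transcript is long, at 9624 bases, and 20.8% of its words occur also outside the gene, the largest part in Tubgcp4. Shld1, of the shieldin complex, was at 15.3 and 18.2 TPM with a ratio whose interval (0.994 to 1.44) includes 1.

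Accessory end-joining factors were the quietest list, with 0 of 12 called at 0.3 in either direction, against 7.28% of all genes higher and 18.2% lower. Of the 12, 11 lay below zero (8 in FPKM), with a median of -0.11. Tdp1, which clears blocked ends, was at 31.3 and 33.9 TPM, and Dclre1b, a nuclease related to Artemis, was at 13.3 and 12.9 TPM. Wrn, the Werner helicase, was at 26.5 and 23.0 TPM, and Cyren, a regulator of end joining, at 9.32 and 7.82 TPM. Of Cyren's words, 64.8% occur also outside the gene, the largest part in Tmem140.

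In the alternative end-joining list 2 of 8 genes were higher by 0.3 or more, against 7.28% of all genes, and none was lower, against 18.2%. The median was -0.02 (0.07 in FPKM). The 2 that were higher, Lig1 at 27.0 and 42.9 TPM and Fen1 at 45.2 and 63.1 TPM, encode the ligase and flap nuclease of DNA replication. Of Fen1's words, 88.5% occur also outside the gene, the largest part in Gm10143. Lig3, the other ligase of this pathway, was at 31.1 and 28.5 TPM, and Parp1, a sensor of breaks, at 106 and 92.4 TPM.

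**Figure D5:**
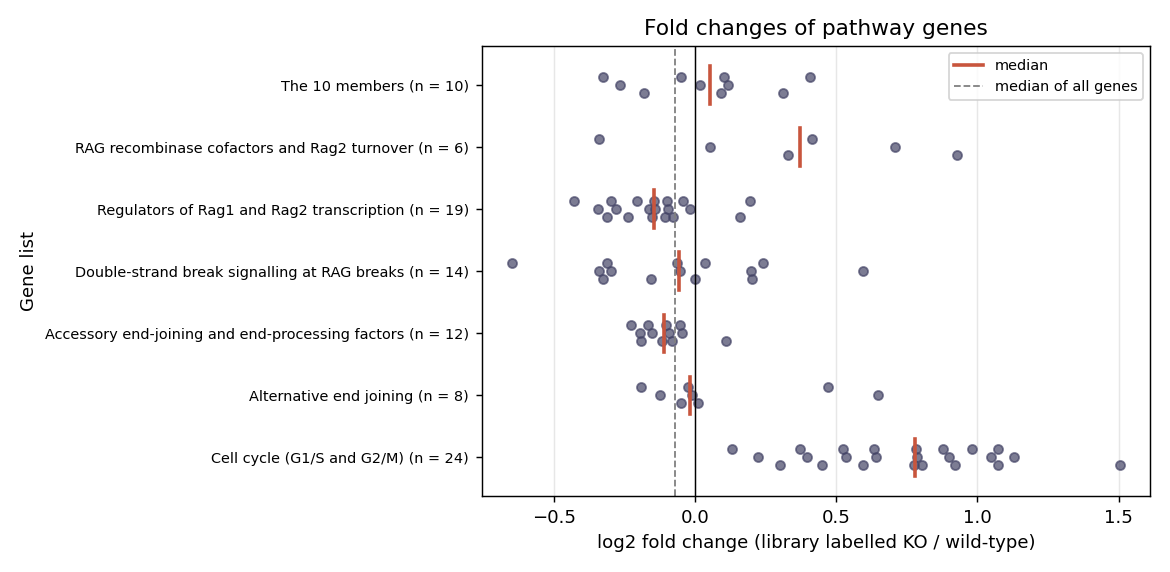
Log2 fold change (KO-labelled over wild-type-labelled library) of each gene in the 10 members and 6 related lists, with the median of each list as a red bar and the median of all genes, -0.07, as a dashed line. The cell cycle list lies entirely above zero with a median of 0.78, while the members spread from -0.33 to 0.41 around zero.

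Markers of other cells that express some of these genes were present at low levels. B-lineage cells also use Rag1, Rag2 and Dntt: their 8 markers summed to 56.9 TPM in the wild-type-labelled library and 66.8 TPM in the KO-labelled library, with the precursor markers Igll1 at 0 and 0.296 TPM and Vpreb1 at 2.99 and 3.95 TPM. Early thymocyte markers summed to 92.1 and 71.8 TPM over 6 genes, of which Il7r, also in the mature list, gave 54.3 and 45.7 TPM. Of the 5 early markers that passed the filter, 4 were lower in the KO-labelled library and 1 higher. Notch3 was the furthest from zero, at 13.3 and 5.13 TPM. Markers of mature thymocytes, in which Rag1, Rag2 and Dntt are normally off, summed to 463 and 396 TPM over 8 genes, with Klf2 at 41.5 and 19.3 TPM, S1pr1 at 8.28 and 3.61 TPM and Ccr7 at 100.5 and 65.1 TPM. The part of mature or early cells in the higher Rag2 and Dntt levels of the KO-labelled library was not tested. Myeloid and dendritic markers summed to 369 and 278 TPM (8 genes). Innate-like T and NK markers summed to 105 and 139 TPM (5 genes), of which 4 were higher in the KO-labelled library. The 1 that was lower, Zbtb16, was near the filter, at 1.05 and 0.0961 TPM. Thymic epithelial markers summed to 14.9 and 15.8 TPM (7 genes), with Foxn1, Krt5 and Krt8 listed at 0.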

How the data were processed

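Trizol-extracted total RNA went into TruSeq libraries, per the labels' protocols. The submitters' processing notes name HISAT2 (version and strand setting not given in the sources used here) and mm10/GRCm38. StringTie 1.3.3b quantified RefSeq transcripts only, per the file headers. The deposited tables give the authors' TPM, FPKM and coverage per gene, and coverage per exon. Read pairs were estimated as covered bases / 202 (2 mates of 101). Pseudocount and filter were 1 TPM. Rows of one gene ID were summed. Isoform share is a transcript's percent of its gene's TPM. Exon depth was summed over all transcripts of a gene. The members and lists were chosen with earlier results of these data known. Named were the members, their neighbours within 5 kb, Nsrp1, and the 2 highest and 2 lowest of each list; Skp2, Hmgb1, Runx1, Mdc1, Atm, Tpx2, Ccnb2, Aurkb and single markers were named after their values were seen. The parts of transcripts, Prkdc segments and length classes were chosen after seeing the data. Of 85 list names Shld3 was unmatched, and of the markers Trdc. Promoters are RefSeq's (GRCm38.p6) and other sequences GENCODE M21's. On simulated read pairs for 11475 genes, 95.3% of ratio intervals held the true ratio. Those pairs were drawn from the Poisson model that the intervals assume. The share therefore checks the calculation, and cannot show whether the model holds for these libraries. Python 3.11.15, pandas 2.3.3, numpy 2.4.6, scipy 1.17.1 and matplotlib 3.10.9 were used.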

Additional observations from a re-analysis of the deposited data

How the results depend on the processing

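With 1 library per genotype no result could be checked against replicates, and no replicate could be left out. No paired analysis was possible because the labels carry no replicate numbers and each group has 1 library. The count of 0 members at a log2 fold change of 1 was the same under every alternative (a pseudocount of 0.1, FPKM, rescaling by the median ratio, no filter, a filter of 5 TPM, without the 3′ terminal exon, and each part alone). The count at 0.3, 3 members in the report, was 5 without the 3′ terminal exon and 5 over the 5′ part only, in both cases Dntt higher and Rag1, Lig4, Prkdc and Dclre1c lower. It was 2 (Dntt and Rag2) in FPKM and after rescaling, and over the 3′ part only the 3 were Rag2, Dntt and Xrcc4, without Prkdc. Of all genes, 30% were called lower without the terminal exon and 33.7% over the 5′ part. Over the 5′ part the members' median was -0.049. Dntt was past 0.3 under each alternative and Rag2 under each but the terminal-exon and 5′ part settings. FPKM and rescaling moved the split of all genes at 0.3 from 876 higher and 2187 lower to 1268 and 1070, and to 1238 and 1638. Rag1 turned from -0.05 to 0.05 in FPKM and 0.01 after rescaling, and Xrcc4 to -0.04 without its terminal exon. The Dclre1c calls were the same in estimated read pairs and at 10 points.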
